A study of Mus musculus with 6 samples.

Results

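The genes described here encode potassium channel subunits (symbols beginning Kcn), sodium channel alpha subunits (Scn with a number and a) and the alpha1, alpha2-delta and beta subunits of voltage-gated calcium channels (Cacna1, Cacna2d and Cacnb). They were taken by symbol alone, which found 120 of the 49492 rows of the deposited gene table. RNA of the soft palate, the posterior part of the palate, was compared between 3 control libraries, with the genotype Wild type, and 3 Dlx5 knockout libraries, with the genotype Dlx5-/-, all from mouse embryos at stage E14.5. The labels name no other allele, transgene or agent, and they do not state whether each library had its own embryo or pooled tissue. The p-values therefore measure the spread between these libraries, which may in part be technical.

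Ion channels are membrane proteins that let chosen ions pass and so set the electrical behaviour of a cell. Voltage-gated sodium channels start the action potential, potassium channels end it and hold the resting potential, and calcium channels turn the electrical signal into transmitter release in nerve endings or contraction in muscle. The palate at this stage holds axons of cranial sensory and autonomic ganglia, developing muscle fibres and growing vessels, and each of these cell types uses its own set of channel subunits. The members were therefore sorted by the tissue each is best known from, into neuronal (56 genes), skeletal muscle (8), vascular and smooth muscle (7), heart (10) and unclassed (39).

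Library totals ran from 6891798 to 11922442 estimated counts. Dlx5 itself had 242, 193 and 113 counts in the controls against 7, 15 and 17 in the knockouts, and its log2 fold change was -3.93 (edgeR adjusted p = 0.0205, SE 0.32), so the 6 libraries matched their labels. Levels are given in CPM, the count of a gene per 1000000 counts of its library after scaling with TMM factors. All 8 palate mesenchyme markers had counts in every library. Their sum was 619 to 735 CPM in the controls against 764 to 842 CPM in the knockouts, carried mostly by Pdgfra and Prrx1, which had every knockout library above every control, whereas Pax9 had every knockout library below. Knockout replicate 3 stood apart in markers of mature brain: over 10 genes they summed to 387 CPM there, against 49.96 to 95.9 CPM in the other 5 libraries. Results that rest on that library are given with and without it.

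Of the neuronal channel genes tested, 30 had lower and 20 higher estimates in the Dlx5 knockout. The smallest p-values belonged to lower ones, among them the potassium channel genes Kcna2 and Kcna6, the sodium channel gene Scn9a and the calcium channel gene Cacna1b, at log2 fold changes of -0.81, -0.69, -1.12 and -0.89 (3 libraries a group). The muscle channel gene Cacna1s had a higher estimate of 1.00, and the vessel genes Kcnj8 and Cacna1c were at -0.06 and 0.01. Lower estimates were not confined to neuronal genes: 5 of 6 tested skeletal muscle genes and 5 of 6 tested vascular genes had them. Class medians were -0.22 for neuronal, -0.09 for skeletal muscle and -0.35 for vascular genes. After adjustment over all genes with edgeR, 0 channel genes passed at 0.05.

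Of the 120 genes, 94 had a mean of at least 1 CPM over the 6 libraries and entered the test, and 26 did not. Among the 94, 5 would have been below that mean without knockout replicate 3 (Cacna1i, Kcnip2, Kcnj9, Kcns2 and Kcnv1) and 1 without knockout replicate 1 (Kcne2), so the genes tested are not a neutral sample of the 120. In edgeR's quasi-likelihood test, adjusted over 16218 genes, 0 of the 94 passed at 0.05, where 0.00617% of all genes, Dlx5 alone, did. At an unadjusted p under 0.05 there were 27 channel genes with lower and 3 with higher estimates in the knockout. The lower ones were 28.7% of the 94, against 7.23% of all genes tested, and the higher ones 3.19%, against 5.61%. Every knockout library lay below every control library for 26 channel genes (27.7%, against 9.7% of all genes) and above for 5, against 9.49% of all genes. The median log2 fold change was -0.13 over the 94 and 0.01 over all genes.

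The count of calls depended on the method and on 1 library. DESeq2 called 12 channel genes at an adjusted p under 0.05, all lower, where 2.76% of its genes were called lower and 0.858% higher. Among these were Kcna1, Kcna2, Kcna6, Kcnb2, Kcnh1, Kcnk10, Scn7a, Scn9a, Scn10a, Cacna1b and Cacna2d2. Limma-trend called 5 of them (Kcna2, Kcna6, Kcnh1, Cacna1b and Cacna2d2), against 0.543% of all genes lower and 0.0555% higher. Without knockout replicate 3, edgeR called 8 channel genes, all lower, against 0.963% of all genes lower and 0.0746% higher; among these were Kcna2, Kcna6, Kcnh1, Scn7a, Scn8a, Scn9a and Cacna1b. In that fit 35 of 89 channel genes had an unadjusted p under 0.05 with a lower and 3 with a higher estimate, against 8.32% and 5.19% of all genes. With any other library left out edgeR called 0 channel genes at an adjusted p under 0.05. Those fits called only 0 to 6 of all genes, so this 0 is not particular to channel genes.

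**Figure D1:**
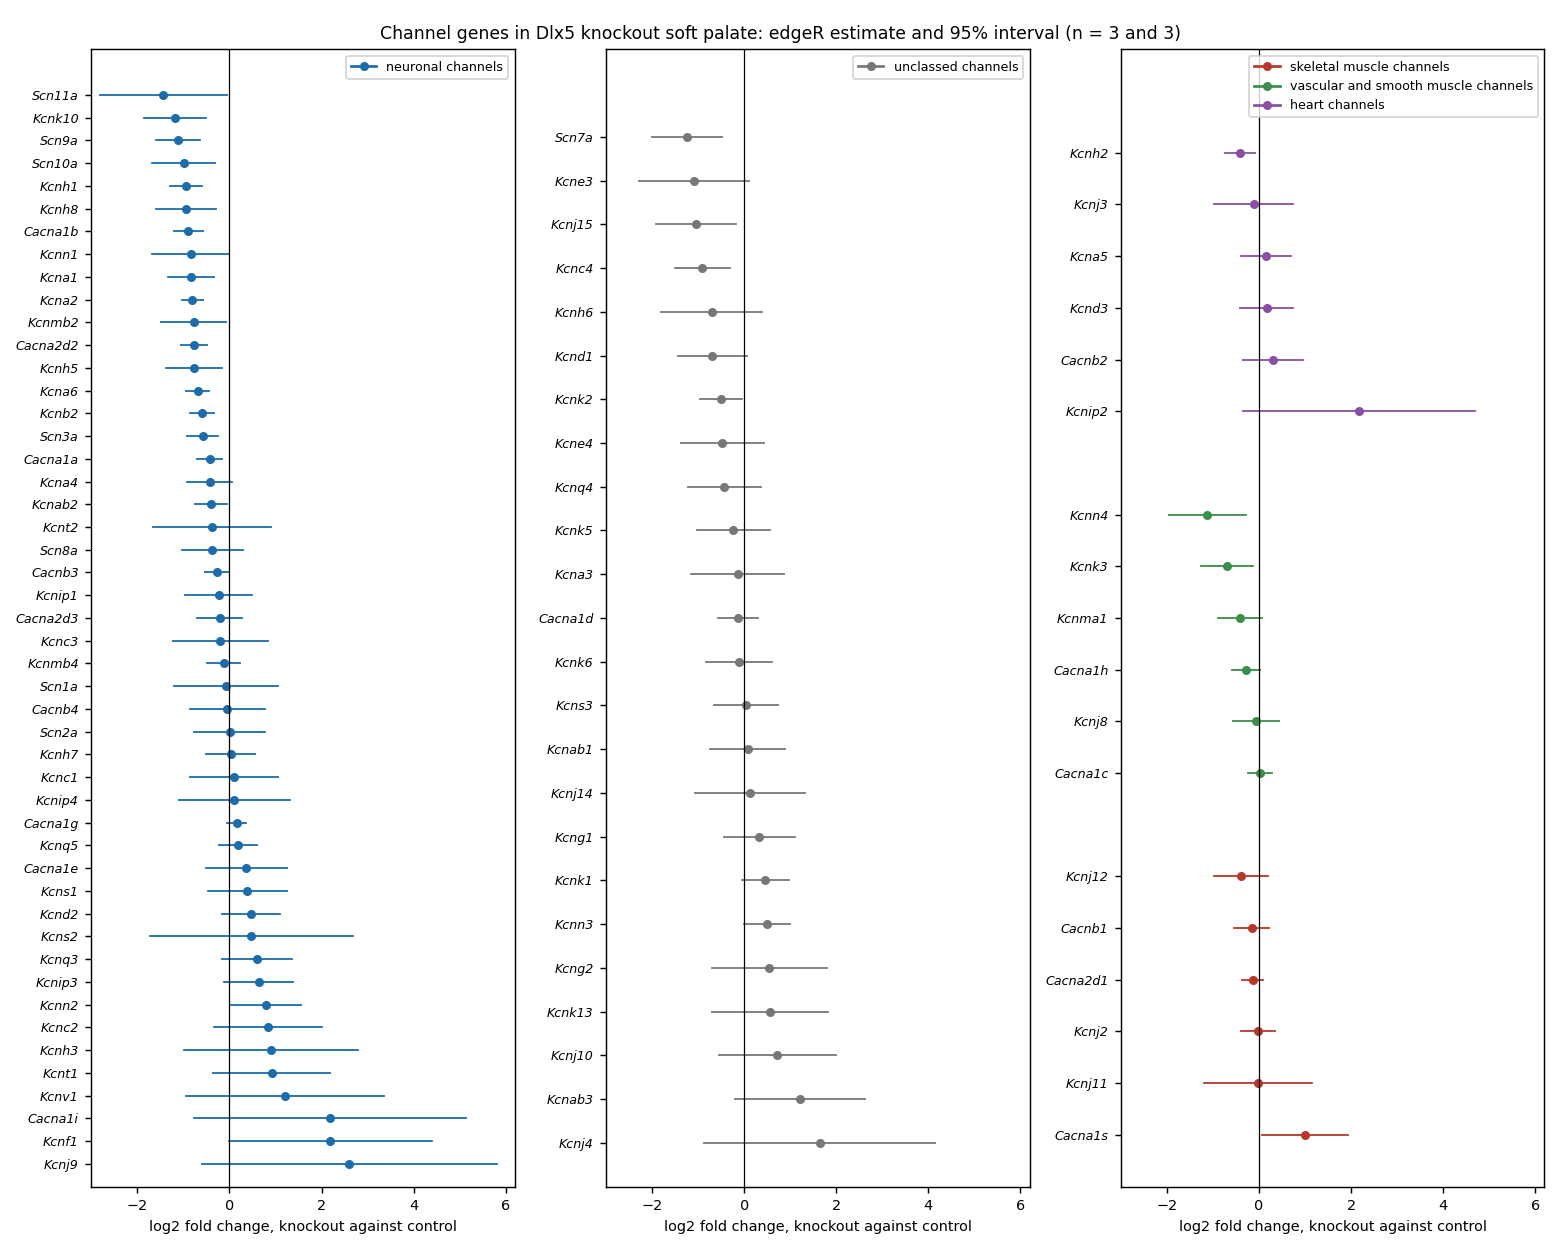
Log2 fold change (x axis) of the tested channel genes, 1 per line, with points for the edgeR estimate and bars for its 95% confidence interval, coloured by tissue class; 4 genes are not drawn, among them Kcne2, whose control libraries were at or near 0. Neuronal genes spread from lower estimates with narrow intervals (Kcna2, Cacna1b, Kcnh1) to higher ones with wide intervals (Kcnj9, Kcnf1, Cacna1i).

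Among the neuronal genes, 50 of 56 entered the test. Of these, 20 had an unadjusted p under 0.05 with a lower estimate (40.0%, against 7.23% of all genes) and 1, the small-conductance potassium channel gene Kcnn2, with a higher one. The 7 channel genes with an edgeR adjusted p under 0.1 were all in this class and all lower, against 1.58% of all genes lower at that level. The class median was -0.22 with all libraries. Over the 46 of these genes that also passed the filter without knockout replicate 3, it was -0.27 with that library and -0.58 without it. Estimates above 0 with all libraries included Kcnq3 at 0.60, Kcnt1 at 0.92, Cacna1e at 0.37 and Kcnc1 at 0.10. Without knockout replicate 3 they were 0.09, -0.02, -0.23 and -0.63 in the same order, so the higher values of these genes rested largely on that library.

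The smallest p among all members belonged to Kcna2, which encodes a Kv1 potassium channel subunit placed along axons beside the nodes of Ranvier. It measured 50.4, 62.7 and 55.8 CPM in the controls against 33.7, 32.1 and 31.0 CPM in the knockouts. All 3 knockout libraries lay below all controls and within a narrow range, and the log2 fold change was -0.81 (edgeR adjusted p = 0.0528, SE 0.10). Kcna6, another Kv1 subunit, measured 74.3, 77.1 and 70.8 CPM in the controls against 48.9, 50.3 and 39.0 CPM in the knockouts. The groups did not overlap, with a log2 fold change of -0.69 (edgeR adjusted p = 0.0550, SE 0.11), and without knockout replicate 3 it was -0.58 (adjusted p = 0.0318, edgeR). Kcna6 overlaps the gene Gm26673 on the opposite strand over 2355 exonic bases, and whether the counting used strand is not stated, so its reads may not all be its own. Kcna1, the usual partner of Kcna2 in axonal channels, measured 17.2 ± 1.67 CPM in the controls against 9.68 ± 2.88 CPM in the knockouts (SD, n = 3 each), with a log2 fold change of -0.83 (edgeR adjusted p = 0.146, SE 0.22). The beta subunit gene Kcnab2, whose protein binds Kv1 channels in the cytoplasm, measured 39.4, 43.0 and 34.4 CPM in the controls against 26.3, 25.7 and 36.4 CPM in the knockouts. Its knockout replicate 3 lay inside the range of the controls and the other knockouts below it.

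Of the Kv1 genes, 6 sit in 2 clusters of the genome, and neighbours did not share one pattern. On chromosome 6, Kcna5, Kcna1 and Kcna6 lie next to each other between positions 126532551 and 126740674 (GRCm38, the assembly also called mm10). Kcna5, known from heart and vessels, had a log2 fold change of 0.15 (95% confidence interval -0.39 to 0.70), while the neuronal Kcna1 and Kcna6 had -0.83 (-1.33 to -0.34) and -0.69 (-0.94 to -0.44). On chromosome 3, Kcna3, a channel of lymphocytes, is the neighbour of Kcna2. It stood at 1.11 ± 0.311 CPM in the controls against 1.00 ± 0.190 CPM in the knockouts (SD, n = 3 each), close to the filter, and had a log2 fold change of -0.15 (-1.15 to 0.86). The third gene there, Kcna10, had 1 count in all libraries together. Outside the clusters, Kcna4 on chromosome 2 had a log2 fold change of -0.43 (-0.92 to 0.06), and the muscle gene Kcna7 on chromosome 7 had 5 counts in all.

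Other potassium channel genes of neurons gave lower values as well. Kcnh1, which encodes the ether-a-go-go channel, measured 22.6, 25.1 and 21.2 CPM in the controls against 13.3, 9.97 and 12.6 CPM in the knockouts, so that every knockout library was below every control. Its log2 fold change was -0.94 (edgeR adjusted p = 0.0550, SE 0.15). Its relatives Kcnh5 and Kcnh8 were lower at unadjusted p values of 0.0178 and 0.0102, with log2 fold changes of -0.78 and -0.94, whereas Kcnh7, which overlaps Gca on the opposite strand over 696 exonic bases, was at 0.02 (95% confidence interval -0.50 to 0.55). Kcnb2, a Kv2 delayed rectifier, measured 27.8, 28.1 and 25.5 CPM in the controls against 19.3, 18.4 and 16.3 CPM in the knockouts, with groups apart and a log2 fold change of -0.60 (edgeR adjusted p = 0.0714, SE 0.11). Further neuronal potassium genes with an unadjusted p under 0.05 and a lower estimate were Kcnmb2, a BK accessory subunit, and Kcnn1, a small-conductance channel, at log2 fold changes of -0.78 and -0.84.

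Kcnq3 encodes a potassium channel subunit that damps repeated firing of neurons. Kcnq3 measured 6.998, 6.72 and 7.88 CPM in the controls against 7.20, 8.13 and 17.1 CPM in the knockouts. Here 5 libraries lay close together and knockout replicate 3 stood above them, which moved the log2 fold change from 0.09 without that library to 0.60 with it. Kcnk10, a two-pore leak channel also called TREK-2, measured 8.50, 8.01 and 5.88 CPM in the controls against 4.25, 3.47 and 2.26 CPM in the knockouts, with a log2 fold change of -1.19 (edgeR adjusted p = 0.133, SE 0.29).

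Sodium channel alpha subunits form the pore through which the action potential starts. Of the 9 that entered the test, 5 had an unadjusted p under 0.05 with a lower estimate and 0 with a higher one, against 7.23% and 5.61% of all genes. Scn9a, which encodes Nav1.7 of sensory and sympathetic neurons, measured 131, 187 and 128 CPM in the controls against 73.9, 81.9 and 50.6 CPM in the knockouts. Every knockout library was below every control, and the log2 fold change was -1.12 (edgeR adjusted p = 0.0711, SE 0.21). Scn10a, the Nav1.8 channel of pain-sensing neurons, measured 34.02, 43.4 and 32.8 CPM in the controls against 17.7, 27.5 and 10.7 CPM in the knockouts, with knockout replicate 3 the lowest. Its log2 fold change was -0.998 (edgeR adjusted p = 0.199, SE 0.30), or -0.71 without that library.

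Scn11a, the Nav1.9 channel of the same neurons, had 35, 53 and 28 counts in the controls against 8, 29 and 6 in the knockouts. Knockout replicate 3 was again the lowest, and the log2 fold change of -1.44 (edgeR adjusted p = 0.367, SE 0.60) became -0.96 without it and -2.58 without knockout replicate 2. Scn7a, which encodes a sodium-sensing channel of Schwann cells, glia and sensory neurons, belonged to the unclassed genes. It measured 36.0, 47.8 and 36.6 CPM in the controls against 20.0, 23.5 and 8.05 CPM in the knockouts, with groups apart and a log2 fold change of -1.25 (edgeR adjusted p = 0.154, SE 0.33); without knockout replicate 3 it was -0.89 (adjusted p = 0.0386, edgeR). Scn3a, the Nav1.3 channel of embryonic neurons, measured 23.7, 25.9 and 18.3 CPM in the controls against 14.6, 16.1 and 14.7 CPM in the knockouts, with a log2 fold change of -0.58 (edgeR adjusted p = 0.142, SE 0.15).

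The sodium channels of brain behaved differently between knockout libraries. Scn8a, the Nav1.6 channel of mature nodes and axon initial segments, measured 21.6, 22.8 and 23.7 CPM in the controls against 12.3, 12.4 and 27.2 CPM in the knockouts. Knockout replicates 1 and 2 were the lowest of the 6 libraries and knockout replicate 3 the highest, so the log2 fold change was -0.38 (edgeR adjusted p = 0.648, SE 0.29) with all libraries and -0.88 (adjusted p = 0.0331, edgeR) without replicate 3. Scn2a measured 12.9, 15.3 and 15.9 CPM in the controls against 8.50, 11.6 and 23.5 CPM in the knockouts, and Scn1a 6.57, 7.61 and 6.59 CPM in the controls against 2.95, 3.79 and 12.6 CPM in the knockouts. Both showed the same order as Scn8a: their log2 fold changes were 0.00 and -0.07 with all libraries, and -0.55 and -1.04 without knockout replicate 3.

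Neighbouring sodium channel genes did not share one pattern. On chromosome 2, Scn3a, Scn2a, Scn1a, Scn9a and Scn7a follow each other between positions 65457118 and 66784914 (GRCm38). In knockout replicate 3, Scn9a and Scn7a were at 50.6 and 8.05 CPM, below all other libraries, while Scn1a and Scn2a were at 12.6 and 23.5 CPM, above all other libraries. On chromosome 9, Scn10a lies from 119608456 to 119719322 and Scn11a from 119753759 to 119825456. These neighbours had log2 fold changes of -0.998 and -1.44, and both were lowest in knockout replicate 3.

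**Figure D2:**
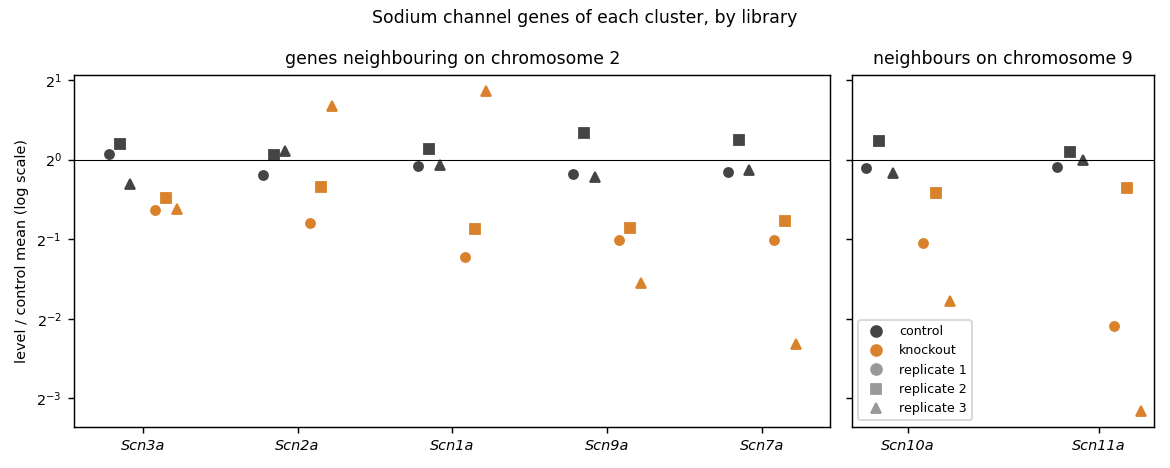
Level of 7 sodium channel genes, each relative to its own control mean (y axis, log scale) in every library, with genes in chromosome order; grey marks are controls, orange marks knockouts and the marker shape gives the replicate. Knockout replicate 3 (orange triangles) lies above the control mean for Scn1a and Scn2a and is the lowest mark for Scn7a, Scn9a, Scn10a and Scn11a.

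Calcium channel genes of nerve endings had lower values for their main subunits. Cacna1b, the pore of the N-type channel that triggers transmitter release in peripheral neurons, measured 42.1, 56.7 and 48.0 CPM in the controls against 25.7, 30.0 and 23.6 CPM in the knockouts. Its groups did not overlap, and the log2 fold change was -0.89 (edgeR adjusted p = 0.0550, SE 0.14). Cacna1a, the P/Q-type pore, measured 36.1, 39.7 and 31.1 CPM in the controls against 24.3, 28.7 and 26.4 CPM in the knockouts, with a smaller log2 fold change of -0.43 (edgeR adjusted p = 0.164, SE 0.12). Cacna2d2, an alpha2-delta subunit that brings channels to the cell surface, measured 30.4, 35.0 and 28.5 CPM in the controls against 18.2, 20.3 and 16.6 CPM in the knockouts. It too had groups apart, with a log2 fold change of -0.78 (edgeR adjusted p = 0.0550, SE 0.12). On the opposite strand, Scn9a, Cacna1a and Cacna2d2 overlap Gm13629, Gm16183 and Gm17141 over 180, 435 and 82 exonic bases.

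Cacnb3, the beta subunit most used with N-type channels, overlapped by 1 library of each group, at 61.0, 77.5 and 73.8 CPM in the controls against 59.1, 52.8 and 63.1 CPM in the knockouts, and had a log2 fold change of -0.28 (edgeR adjusted p = 0.347, SE 0.11). The R-type pore gene Cacna1e and the beta subunit gene Cacnb4 were highest in knockout replicate 3, at 38.1 and 13.8 CPM, against at most 22.3 and 9.69 CPM in any other library. Cacnb4 overlaps A430018G15Rik on the opposite strand over 1433 exonic bases. The T-type pore gene Cacna1g, classed as neuronal, measured 93.1 ± 5.74 CPM in the controls against 103 ± 8.61 CPM in the knockouts (SD, n = 3 each) and had a log2 fold change of 0.15 (95% confidence interval -0.05 to 0.36). Among the 120 members, 37 share exonic bases with another annotated gene on either strand.

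**Figure D3:**
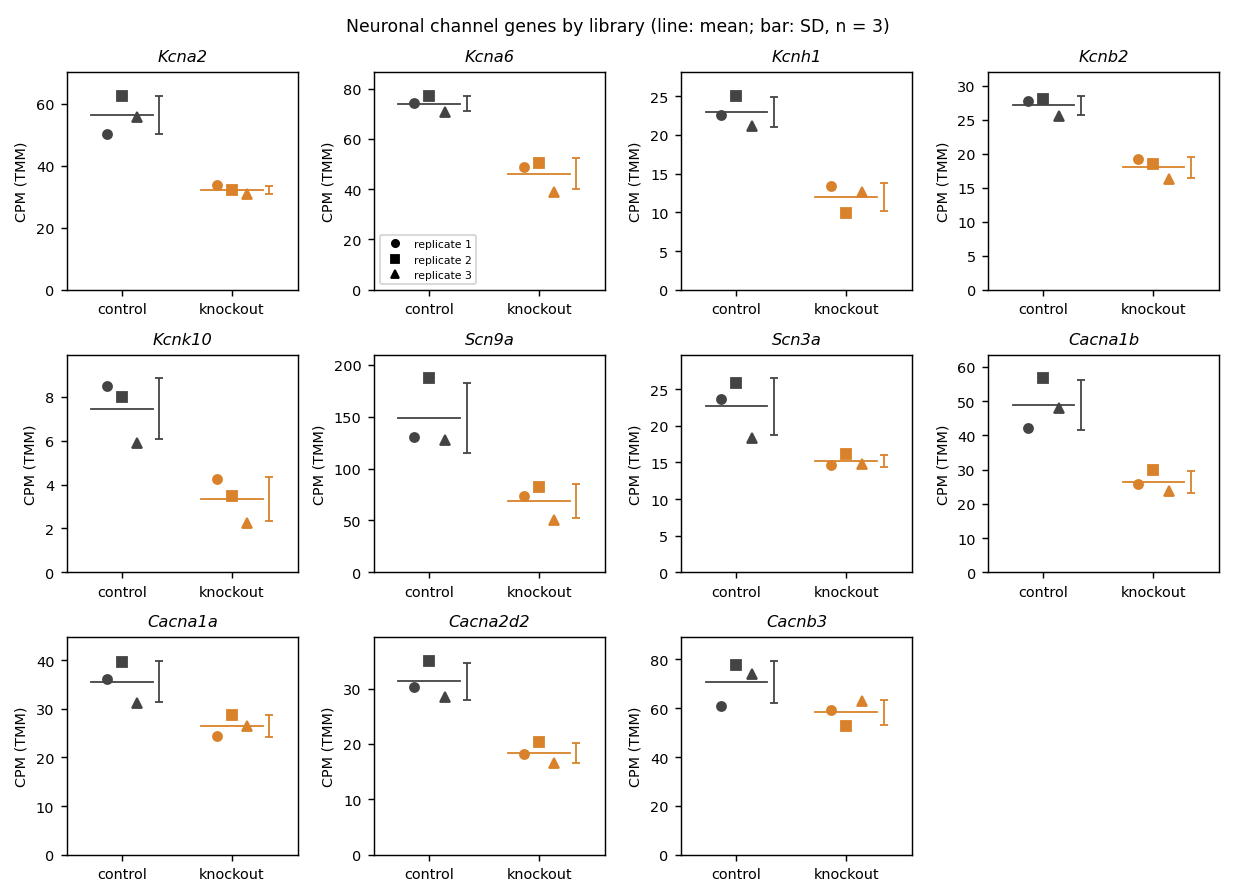
CPM (y axis, from 0) of 11 neuronal channel genes in each library, grey for controls and orange for knockouts, with marker shape for the replicate, a line for the group mean and a bar for its SD (n = 3). Cacnb3 alone has overlapping groups, and knockout replicate 3 is the lowest library for Kcna2, Kcna6, Kcnb2, Kcnk10, Scn9a, Cacna1b and Cacna2d2.

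Neuron markers had lower values in the knockout too. The summed level of 12 such genes was 3719 to 4711 CPM in the controls against 1735 to 2515 CPM in the knockouts, and for 11 of the 12 every knockout library was below every control, against 9.7% of all genes. The exception was Snap25, a synaptic protein, at 51.2, 63.3 and 56.8 CPM in the controls against 37.8, 25.9 and 156 CPM in the knockouts. Tubb3, a neuronal tubulin, measured 332, 381 and 309.6 CPM in the controls against 231, 197 and 160.2 CPM in the knockouts, and Prph, the intermediate filament of peripheral neurons, 480.5, 585 and 518 CPM in the controls against 283, 268 and 101 CPM in the knockouts. Markers of Schwann cells and glia summed to 277 to 366 CPM in the controls against 259 to 499 CPM in the knockouts over 8 genes, so those groups overlapped. In bulk tissue, fewer cells of a type in the palate, fewer in the piece taken and less RNA per cell cannot be told apart. The part of the neuron markers in the channel values was not tested.

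Promoters of 6 members are printed because they belong to 4 neuronal genes with lower values (Kcna6, Kcnh1, Scn9a and Cacna1b), to the muscle gene with a higher estimate (Cacna1s) and to a vessel gene whose groups overlapped (Kcnj8). Each run is the genomic sequence up to 250 bases before the RefSeq start site on GRCm38.p6, written 5′ to 3′ on the gene's strand and without bases that GENCODE M21 annotates as exon, and capitals mark CG dinucleotides. In order they lie at chr6:126740675-126740924, minus strand; chr1:192190527-192190773, plus strand; chr2:66634963-66635212, minus strand; chr2:24763153-24763402, minus strand; chr1:136052561-136052749, plus strand; and chr6:142571615-142571864, minus strand.
Kcna6: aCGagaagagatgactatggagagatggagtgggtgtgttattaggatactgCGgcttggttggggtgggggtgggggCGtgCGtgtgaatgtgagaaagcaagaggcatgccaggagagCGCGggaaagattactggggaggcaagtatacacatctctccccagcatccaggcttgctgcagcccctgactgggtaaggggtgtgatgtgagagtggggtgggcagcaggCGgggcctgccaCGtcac
Kcnh1: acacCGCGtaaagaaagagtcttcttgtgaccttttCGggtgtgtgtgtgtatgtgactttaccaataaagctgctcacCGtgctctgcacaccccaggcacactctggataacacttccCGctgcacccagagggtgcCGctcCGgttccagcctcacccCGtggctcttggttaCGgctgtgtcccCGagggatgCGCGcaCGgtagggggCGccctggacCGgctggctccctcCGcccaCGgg
Scn9a: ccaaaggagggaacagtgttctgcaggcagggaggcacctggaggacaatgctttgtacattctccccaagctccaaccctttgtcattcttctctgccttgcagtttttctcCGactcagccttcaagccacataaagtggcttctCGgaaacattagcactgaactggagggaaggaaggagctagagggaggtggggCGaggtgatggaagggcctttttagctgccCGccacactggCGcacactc
Cacna1b: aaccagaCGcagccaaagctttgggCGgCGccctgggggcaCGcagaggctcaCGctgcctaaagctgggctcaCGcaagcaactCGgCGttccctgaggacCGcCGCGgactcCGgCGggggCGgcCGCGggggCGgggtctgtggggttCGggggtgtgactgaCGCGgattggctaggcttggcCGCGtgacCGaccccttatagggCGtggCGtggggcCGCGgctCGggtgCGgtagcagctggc
Cacna1s: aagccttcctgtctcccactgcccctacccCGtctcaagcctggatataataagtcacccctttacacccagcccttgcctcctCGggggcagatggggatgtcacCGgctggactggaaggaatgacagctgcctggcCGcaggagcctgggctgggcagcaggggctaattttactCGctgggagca
Kcnj8: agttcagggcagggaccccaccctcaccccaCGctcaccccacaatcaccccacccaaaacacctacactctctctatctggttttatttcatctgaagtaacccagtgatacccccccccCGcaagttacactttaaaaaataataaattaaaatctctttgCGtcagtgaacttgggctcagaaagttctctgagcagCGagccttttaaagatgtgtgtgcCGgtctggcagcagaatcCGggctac

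The neuronal genes with lower values did not share one kind of promoter. Cacna1b held 29 CG dinucleotides in 250 bases and Kcnh1 17 in 247, whereas Scn9a held 5 and Kcna6 8 in 250 bases each. Kcnj8 held 6 and the shorter run of Cacna1s 5. Of the 120 members, 89 had an entry in the RefSeq table, with 124 start sites and a median of 7.5 CG dinucleotides in 250 bases, against 6 over 32851 start sites of 27025 genes. The letters CAGCTG, an E-box of the kind that myogenic factors bind and identical on both strands, occurred before at least 1 start site of 24 of the 89 genes (27.0%), against 14.7% of all genes. By class these were 11 of 41 neuronal, 2 of 7 skeletal muscle, 0 of 5 vascular and 3 of 7 heart genes. The median GC content was 58.2% for channel promoters and 52.4% for all, and the shares were not matched for it or for start sites per gene. Cacna1s holds CAGCTG from base 128 of the run above and the neuronal Cacna1b from base 243. The letters TAATTA, a homeodomain core motif that also reads the same on both strands, were in 0 of the 89 genes, against 5.65% of all genes. A match is a description of the letters and not a bound site, and no match says only that the letters are not in this window.

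A second group of channel genes was high in knockout replicate 3 alone. In 12 of the 94 tested genes that library was over 2 times the highest of the other 5, a threshold chosen after the values were seen, which is 12.8% against 1.67% of all genes. They were Cacna1i, Kcnab3, Kcnc2, Kcnf1, Kcnh3, Kcnip2, Kcnj4, Kcnj9, Kcnj10, Kcnq3, Kcnt1 and Kcnv1, of which 8 were classed as neuronal. Cacna1i, Kcnip2, Kcnj9 and Kcnv1 had passed the filter only through that library. Among genes with a mean of at least 1 CPM over the other 5 libraries the count was 8 of 89 (8.99%), against 1.22% of all such genes. Kcnj9, a G protein-gated inward rectifier of brain, measured 1.40, 0.0809 and 0.573 CPM in the controls against 0.591, 0.108 and 11.1 CPM in the knockouts. Kcnf1, a silent Kv5 subunit, measured 1.29, 0.971 and 1.86 CPM in the controls against 0.827, 1.95 and 15.2 CPM in the knockouts, and its log2 fold change was 2.19 (edgeR adjusted p = 0.391, SE 0.96) with that library and 0.06 without it.

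Kcnip2, an accessory protein of Kv4 channels in heart and brain, measured 0.754, 1.38 and 0.860 CPM in the controls against 0.827, 0.434 and 12.2 CPM in the knockouts. The high value again came from 1 library. Kcnab3, a beta subunit, measured 1.29, 0.890 and 1.29 CPM in the controls against 0.945, 1.84 and 5.04 CPM in the knockouts. Kcnip3, a calcium-binding Kv4 partner, showed a smaller difference of the same form, at 4.41, 4.53 and 4.87 CPM in the controls against 5.67, 4.77 and 10.8 CPM in the knockouts. Kcnj10, the inward rectifier of astrocytes, stood at 18.3 CPM in knockout replicate 3 against at most 7.21 CPM elsewhere. Beside these, 7 of 10 mature brain markers were over 2 times their highest other library in knockout replicate 3, among them Gad1 at 0.861, 0.648 and 2.44 CPM in the controls against 2.48, 0.434 and 52.5 CPM in the knockouts and Slc17a7, a glutamate transporter of synaptic vesicles, at 4.95, 2.10 and 5.73 CPM in the controls against 3.31, 2.71 and 63.9 CPM in the knockouts. The part of these markers in the channel values was not tested.

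Over all 94 genes knockout replicate 3 was the highest library for 38 (40.4%, against 21.9% of all genes) and the lowest for 22 (23.4%, against 22%). The members lowest there included Scn7a, Scn9a, Scn10a, Scn11a, Kcna2, Kcna6, Kcnb2, Kcnk10, Cacna1b, Cacna2d2, Kcnk3 and Kcnd1.

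**Figure D4:**
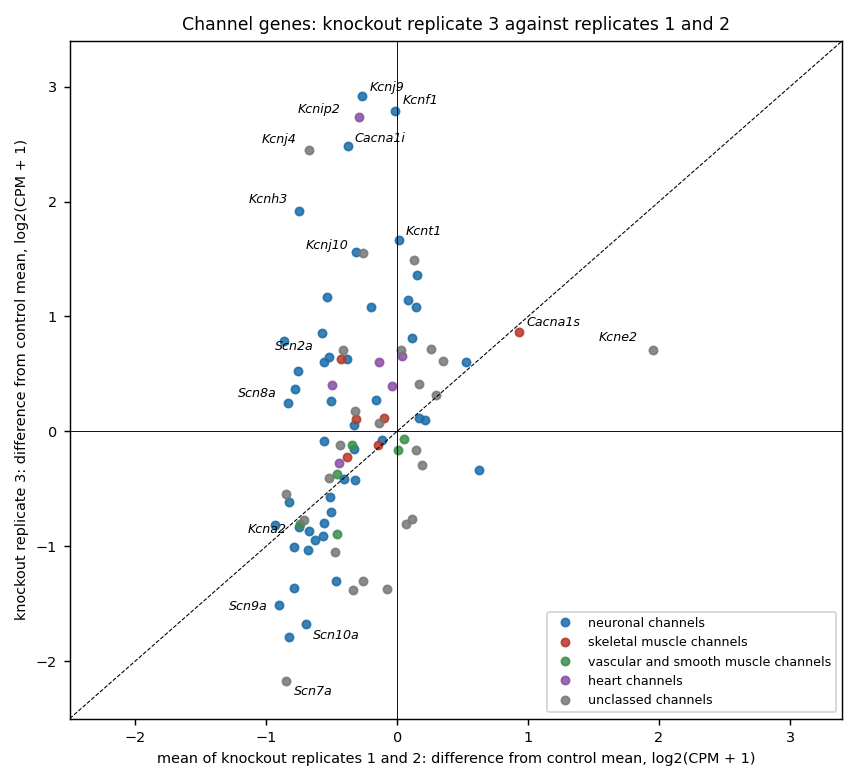
Each point is 1 of 91 tested channel genes, coloured by tissue class, with the difference from the control mean on the log2(CPM + 1) scale in knockout replicate 3 (y axis) against the mean of knockout replicates 1 and 2 (x axis). Points on the dashed line have equal differences: Kcna2 lies near it at the lower left, Kcnj9, Kcnf1 and Kcnip2 lie far above it and Scn7a and Scn10a below it.

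Kcne2 was high in knockout replicate 1 instead. It encodes a small accessory subunit of potassium channels that is abundant in the choroid plexus, the epithelium that secretes cerebrospinal fluid. It had 0, 1 and 0 counts in the controls against 112, 1 and 9 in the knockouts, so the control libraries were at or near 0 and no fold change is given. The groups did not overlap, but knockout replicates 2 and 3 held only 1 and 9 counts, and the test gave an adjusted p of 0.212 (edgeR). Ttr, the transport protein most abundant in choroid plexus and chosen after its values were seen, measured 0.431, 1.05 and 1.29 CPM in the controls against 627, 1.08 and 19.0 CPM in the knockouts. The 2 genes were thus highest in the same library.

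Skeletal muscle uses Cacna1s as the voltage sensor of contraction, with Cacnb1 and Cacna2d1 as its partner subunits, and Scn4a to carry the action potential. Of 8 genes of this class 6 entered the test, and 0 lower and 1 higher had an unadjusted p under 0.05, against 7.23% and 5.61% of all genes. The class median was -0.09, or 0.07 without knockout replicate 1. Cacna1s measured 6.78, 4.78 and 2.29 CPM in the controls against 6.02, 13.4 and 8.65 CPM in the knockouts. Knockout replicate 1 lay within the range of the controls, while replicates 2 and 3 were above all of them, and the log2 fold change was 1.00 (edgeR adjusted p = 0.351, SE 0.41). Its estimate ran from 0.64 to 1.36 with 1 library left out. Cacna1s overlaps Gm37759 on the opposite strand over 1309 exonic bases.

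Scn4a, the Nav1.4 channel of muscle fibres, was below the filter, with 2, 7 and 4 counts in the controls against 8, 19 and 21 in the knockouts. In CPM every knockout library was above every control, and a fit without the filter gave a log2 fold change of 1.75 (adjusted p = 0.263, edgeR). The partner subunits of Cacna1s did not show its estimate. Cacnb1 measured 17.9, 18.6 and 21.1 CPM in the controls against 14.1, 16.4 and 20.7 CPM in the knockouts, with a log2 fold change of -0.16 (95% confidence interval -0.54 to 0.21). Cacna2d1, the alpha2-delta subunit of muscle and many other tissues, measured 79.8, 97.5 and 85.9 CPM in the controls against 73.3, 84.97 and 80.3 CPM in the knockouts, with -0.14 (-0.37 to 0.09). The inward rectifier gene Kcnj2, which stabilises the resting potential of muscle and heart, had -0.03 (-0.39 to 0.34).

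Skeletal muscle markers had their highest sum in knockout replicate 2, where Cacna1s was also highest. Summed over 11 genes they were at 1130 to 1986 CPM in the controls against 1315 to 3743 CPM in the knockouts, with 1315 CPM in knockout replicate 1, inside the range of the controls. The regulators Myod1 and Myog were instead highest in knockout replicate 3. Of the 11 genes, 1, Myod1, had every knockout library above every control, against 9.49% of all genes. All 11 had higher estimates in the knockout, with log2 fold changes from 0.41 (Ttn) to 1.87 (Ckm). All but Myh3, Ttn and Ckm had an unadjusted p under 0.05 (edgeR), against 5.61% of all genes higher at that level. The smallest adjusted p among them was 0.167 (edgeR, Tnnt1). Whether the channel value follows the amount of muscle RNA was not tested.

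Vascular channel genes gave lower values for the potassium channel genes Kcnn4, Kcnk3 and Kcnma1, and overlapping groups for Kcnj8, Cacna1c and Cacna1h. Of 7 genes 6 entered the test, with 2 lower (Kcnn4 and Kcnk3) and 0 higher at an unadjusted p under 0.05, against 7.23% and 5.61% of all genes. The class median was -0.35, against 0.01 over all genes. Kcnn4, a calcium-activated channel of endothelium and blood cells, measured 3.01, 2.43 and 3.58 CPM in the controls against 1.06, 1.73 and 1.28 CPM in the knockouts, with a log2 fold change of -1.13 (edgeR adjusted p = 0.236, SE 0.37). Kcnk3, the acid-sensing leak channel TASK-1, measured 6.67, 7.45 and 9.604 CPM in the controls against 5.20, 5.64 and 3.76 CPM in the knockouts, with -0.70 (edgeR adjusted p = 0.277, SE 0.25). Every knockout library was below every control for both.

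Kcnma1, the large-conductance BK channel of smooth muscle and neurons, also had groups apart, at 14.53, 14.3 and 16.1 CPM in the controls against 8.03, 13.98 and 11.4 CPM in the knockouts, and a log2 fold change of -0.42 (edgeR adjusted p = 0.446, SE 0.21). It overlaps 4930519K11Rik on the opposite strand over 1016 exonic bases. Kcnj8, the pore of the ATP-sensitive channel of pericytes and smooth muscle, measured 5.38, 6.96 and 7.60 CPM in the controls against 6.02, 7.26 and 5.79 CPM in the knockouts. The groups overlapped, with a log2 fold change of -0.06 and a 95% confidence interval of -0.56 to 0.44. Cacna1c, the L-type calcium channel of smooth muscle and heart, measured 41.4, 41.4 and 34.7 CPM in the controls against 37.0, 44.5 and 37.2 CPM in the knockouts, with 0.01 and an interval of -0.25 to 0.27. Kcnmb1, the BK partner subunit that marks mature smooth muscle, had only 4, 4 and 1 counts in the controls against 3, 1 and 7 in the knockouts.

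Endothelium markers summed to 374 to 433 CPM in the controls against 304 to 362 CPM in the knockouts over 8 genes. The sums were apart through Cdh5, an endothelial cadherin, without which they were 211 to 232 CPM against 184 to 215 CPM and overlapped. Of the 8 genes, 3 had every knockout library below every control, against 9.7% of all genes. Markers of smooth muscle and pericytes summed to 389 to 419.6 CPM in the controls against 387 to 637 CPM in the knockouts over 9 genes and overlapped. The part of these markers in the vascular channel values was not tested.

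**Figure D5:**
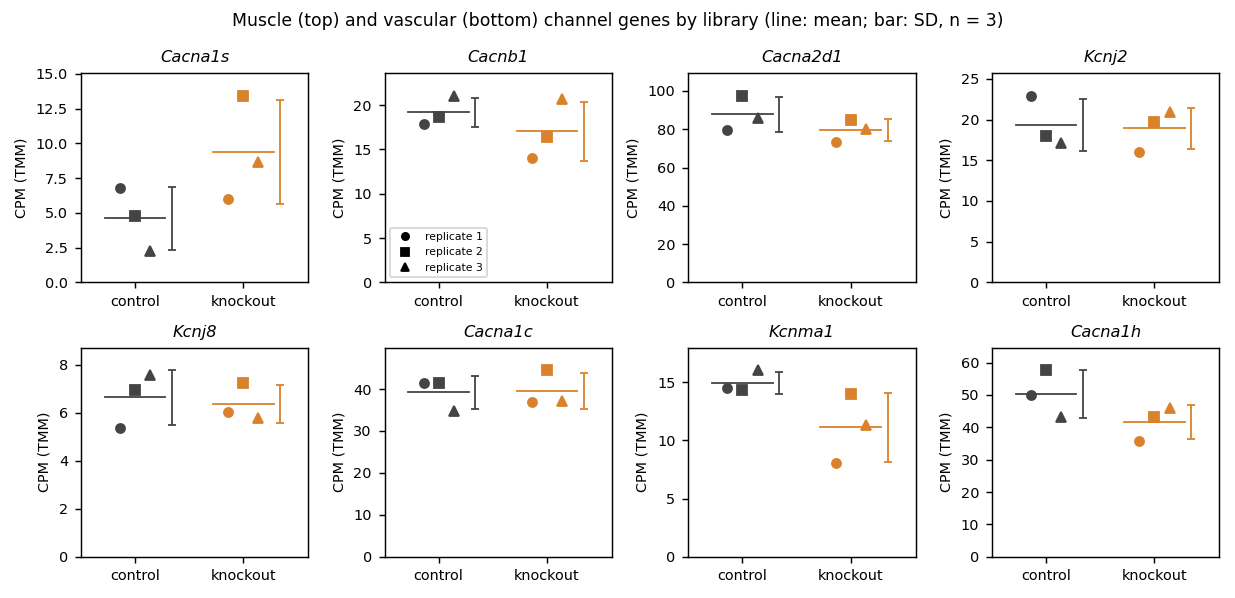
CPM (y axis, from 0) of 4 skeletal muscle channel genes (top row) and 4 vascular and smooth muscle channel genes (bottom row) in each library, with marker shape for the replicate, a line for the group mean and a bar for its SD (n = 3). Cacna1s has 2 knockout libraries above all controls and 1 within their range, Kcnma1 has groups apart, and the groups of the other 6 genes overlap.

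Markers of heart muscle were low: 6 such genes summed to 1.29 to 2.37 CPM in the controls against 1.06 to 8.78 CPM in the knockouts. Nppa, Myl7 and Gata4 were at or near 0 in every library, while Nkx2-5 had 0, 0 and 0 counts in the controls against 0, 26 and 36 in the knockouts. Of 10 heart channel genes 7 entered the test, and only Kcnh2, the hERG channel, had an unadjusted p under 0.05, at 14.1, 15.7 and 16.5 CPM in the controls against 11.2, 10.9 and 12.6 CPM in the knockouts and a log2 fold change of -0.41 (edgeR adjusted p = 0.277, SE 0.14). The class median was 0.17 over 7 genes with all libraries and -0.10 over 6 genes without knockout replicate 3. Kcnip2 was below the filter without that library, so these medians are over different genes. The sign of the median changed when that library was left out.

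Of the 39 unclassed genes 25 entered the test, with 4 lower (Scn7a, Kcnc4, Kcnj15 and Kcnk2) and 1 higher (Kcne2, which passed the filter only through knockout replicate 1) at an unadjusted p under 0.05, against 7.23% and 5.61% of all genes. Kcnc4, a fast Kv3 channel, measured 4.95, 7.61 and 6.16 CPM in the controls against 2.83, 3.14 and 3.91 CPM in the knockouts, with a log2 fold change of -0.91 (edgeR adjusted p = 0.186, SE 0.26). Kcnk1, a two-pore channel found in many epithelia, and Kcnn3, a calcium-activated channel, had every knockout library above every control. Kcnk1 measured 13.1, 7.53 and 12.04 CPM in the controls against 13.8, 13.9 and 16.8 CPM in the knockouts, and Kcnn3 7.11, 6.15 and 6.02 CPM in the controls against 7.20, 8.56 and 11.2 CPM in the knockouts. Their differences were small, with log2 fold changes of 0.46 (edgeR adjusted p = 0.448, SE 0.22) and 0.49 (edgeR adjusted p = 0.405, SE 0.22). Epithelium markers summed to 188 to 319 CPM in the controls against 156 to 168 CPM in the knockouts over 6 genes. Cdh1, Krt14 and Krt17 had every knockout library below every control (3 of 6 genes, against 9.7% of all genes), while Epcam, Krt5 and Trp63 overlapped. The part of these markers in the Kcnk1 value was not tested. Kcnn2, a relative of Kcnn3 from the neuronal class, measured 1.51, 2.02 and 2.01 CPM in the controls against 2.48, 3.79 and 3.31 CPM in the knockouts, with 0.79 (edgeR adjusted p = 0.363, SE 0.33). It overlaps AC121957.1 on the opposite strand over 323 exonic bases.

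The 26 genes below the filter had between 1 and 61 counts over the 6 libraries together, with 10 or fewer in 8 of them. Besides Scn4a and Kcnmb1 they included the heart genes Kcnq1, Kcne1 and Kcnj5 and the neuronal genes Kcnj6, Kcnh4, Kcnk9, Kcnk4, Kcnk12 and Kcnk18. Kcnh4 had 2, 5 and 2 counts in the controls against 4, 1 and 29 in the knockouts, and Kcnk9 0, 11 and 1 counts in the controls against 2, 0 and 22 in the knockouts. In both genes most knockout counts came from knockout replicate 3.

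Levels of different genes were compared per kilobase of annotated exon. In controls the beta subunit gene Cacnb3 was highest at 17.7 CPM per kilobase, followed by Kcna6 at 12.5, Scn9a at 11.6, Cacna1g at 9.18 and Cacna2d1 at 7.07. In knockouts the same quantity was 14.54 for Cacnb3, 7.75 for Kcna6, 5.39 for Scn9a, 10.2 for Cacna1g and 6.41 for Cacna2d1. Kcna6 and Scn9a thus stood above Cacna1g in controls and below it in knockouts.

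Partners of these channels that the symbol rule does not take were read from a list of 41 genes, all of which entered the test. It holds sodium channel beta subunits, calcium channel gamma subunits, HCN pacemaker channels, axonal anchoring proteins and muscle coupling proteins. At an unadjusted p under 0.05 there were 13 lower and 5 higher, against 7.23% and 5.61% of all genes, and 0 passed adjustment over all genes with edgeR. Among the lower were Cntn2 and Cntnap2, adhesion proteins that hold Kv1 channels beside the node. Cntn2 measured 177, 222 and 143 CPM in the controls against 95.1, 104 and 86.3 CPM in the knockouts, with a log2 fold change of -0.93 (edgeR adjusted p = 0.0576, SE 0.16), and Cntnap2 37.0, 45.0 and 38.1 CPM in the controls against 29.6, 22.5 and 25.3 CPM in the knockouts, with -0.64 (edgeR adjusted p = 0.0804, SE 0.13). Both had groups apart, as the Kv1 genes Kcna1, Kcna2 and Kcna6 had.

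A further lower partner was Scn3b, a sodium channel beta subunit of embryonic neurons, at 45.1, 46.9 and 39.8 CPM in the controls against 30.2, 36.4 and 26.9 CPM in the knockouts. Its log2 fold change was -0.50 (edgeR adjusted p = 0.139, SE 0.13). The higher ones were the muscle genes Cacng1, Ryr1 and Jph1 and the genes Scn4b and Stac2. Cacng1, the gamma subunit of the muscle calcium channel, measured 2.05, 1.78 and 1.43 CPM in the controls against 2.36, 7.04 and 3.84 CPM in the knockouts, with groups apart and a log2 fold change of 1.32 (edgeR adjusted p = 0.247, SE 0.44). Ryr1, the calcium release channel that Cacna1s controls in muscle, measured 19.2, 16.4 and 12.5 CPM in the controls against 16.1, 37.9 and 28.4 CPM in the knockouts, with knockout replicate 1 within the range of the controls. Scn4b and Stac2 were high in knockout replicate 3 alone, at 36.4 and 12.1 CPM against at most 2.24 and 2.83 CPM elsewhere.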

How the data were processed

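RNA of soft palate was sequenced in 6 libraries after preparation with an Illumina TruSeq mRNA kit, per the labels' protocols. The authors deposited estimated counts, 1 value per gene and library, made with STAR 2.4.1d and Partek on build mm10 per the submitters' processing notes. Which annotation and strand setting they counted with is not given in the sources used here. The columns keep totals of 6891798 to 11922442, although the file describes itself as normalized, and 1 further column that matched no labelled sample was not used. Counts were rounded and genes with a mean of at least 1 CPM over the 6 libraries were kept (16218).

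Knockout and control were compared by the quasi-likelihood test of edgeR 4.0.16 under R 4.3.3, with TMM factors and Benjamini-Hochberg adjustment over all kept genes. Standard errors come from the F statistic and intervals are 95%. Alternatives were DESeq2 1.42.0, limma-trend (limma 3.58.1) on log2(CPM + 1), other scalings and filters, a replicate block and each library left out, with the filter set anew. The fit was also run on simulated counts with the same spread for every gene. That run checks the code and not how well the fit suits these libraries. Coordinates and exon lengths came from GENCODE M21 (GRCm38), promoters from RefSeq (GRCm38.p6).

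Members, tissue classes and lists were chosen with earlier results of these data known. Named genes are the 10 lower and 10 higher members with the smallest p and 18 chosen by tissue; others are named to account for a count or a family, after their values were seen. A few genes are counted but not reported here.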

Additional observations from a re-analysis of the deposited data

How the results depend on the processing

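The count of channel genes past an adjusted p of 0.05 was 0 with edgeR and also with median-of-ratios factors, a replicate block or ribosomal RNA rows removed. It was 1 (Scn9a) with library totals in place of TMM, 5 with a filter of 5 CPM, 13 without a filter, 12 with DESeq2 and 5 with limma-trend, and 0 to 8 with 1 library left out. Calls over all genes were 41, 74, 679, 506 and 97 in those settings in the same order, 1 with edgeR and 0 to 167 with 1 library left out. The 27 lower genes at an unadjusted p under 0.05 became 20 to 35 with 1 library left out and 26 with the replicate block. Deviations from the group means correlated at -0.01, -0.01 and 0.02 between same-numbered libraries. These values show no pairing by replicate number but cannot exclude it. The 3 higher ones became 13 without a filter, 1 at 5 CPM, 5 without ribosomal RNA rows and 1 to 9 with 1 library left out, 1 without control replicate 2 and 9 without knockout replicate 1 or 2. Of all genes, 7.23% were lower and 5.61% higher at that level with all libraries. Without knockout replicate 3, which gave the 35, they were 8.32% and 5.19%. Shares of all genes in the other settings are not given here, so these changes need not be particular to channel genes. With 1 library left out the median log2 fold change ran from -0.43 to -0.032 for all channel genes, from -0.58 to -0.10 for neuronal, from -0.24 to 0.07 for skeletal muscle, from -0.47 to -0.21 for vascular and from -0.10 to 0.28 for heart genes. The low end was reached without knockout replicate 3 for all channel, neuronal, skeletal muscle and heart genes. Estimates near 0 changed sign: Cacna1c was -0.00634 with library totals and -0.093 to 0.056 with 1 library left out, Kcnj8 -0.19 to 0.033, and Scn2a -0.00707 with DESeq2, -0.13 with limma-trend, -0.13 with the replicate block and -0.55 to 0.27 with 1 library left out. The cause was not tested. Depth limits the 26 genes with at most 61 counts, which had no test in the filtered fit.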
